A study of Mus musculus with 16 samples.

Results

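Tachykinins are short neuropeptides that are cut from larger precursors and act on G-protein coupled receptors. Tac1 encodes the precursor of substance P and neurokinin A, and Tac2 encodes the precursor of neurokinin B. Tacr1, Tacr2 and Tacr3 encode the neurokinin receptors NK1, NK2 and NK3, which prefer substance P, neurokinin A and neurokinin B, respectively. The receptors couple mainly to Gq and phospholipase C, and peptidases at the cell surface end the signal. Substance P is best known from peptidergic nociceptors and from neurons of the striatum, and in the adult cortex tachykinins are made by subsets of GABAergic interneurons.

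The 5 genes were found by their names among the 36930 entries of the deposited RNAseq table. The table holds cortices of 16 C57BL6 pups at P7, of which 8 were Avil-ChR2 and 8 were ChR2-flfl floxed controls. All pups carried a floxed channelrhodopsin-2/td-Tomato allele at the Rosa26 locus, and from P1 to P5 each of them spent 1 h per day under blue light, so that neither genotype was without light. Avil-ChR2 pups in addition carried a Cre recombinase under control of the advillin promoter, which removes the stop in front of channelrhodopsin-2 and makes the cells light sensitive. Around birth this promoter is active mainly in peripheral sensory neurons, and the controls had no Cre.

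Tac1 and Tac2 were both among the genes that the study picked for their genotype difference in these pups, Tac2 as a candidate by its P-value and Tac1 from a list of immune genes that was filtered by P-value and size. Their genotype difference is therefore described without a test. The receptors are included as members of the family, and all 5 genes passed the filter on low values, Tacr2 with 13 of 16 pups above the limit. Reads per pup ranged from 30549126 to 48711134, and all values of up to 20000 reads were whole multiples of 1 read to within 0.05. The libraries went with their genotype labels, because Avil was at 0.825-1.46 CPM in ChR2-flfl pups and at 37.3-46.4 CPM in Avil-ChR2 pups. Reads of the driver gene were thus present in Avil-ChR2 cortex itself, and whether cortical cells carried active Cre was not tested. Avil-ChR2 replicate 4 is labeled female, and the supplementary file of the study lists it as male. Its Y-linked genes went with the supplementary file. Ddx3y was at 54.7 CPM in this pup, and by that file at 1.71-2.57 CPM in females and 50.7-73.4 CPM in males. Xist, which was also planned as a check, did not serve as one. Among the females by that file only Avil-ChR2 replicate 3 had reads of it, with 571 CPM. Sex comparisons were run by the labels and by the supplementary file. Cortical excitatory neuron markers such as Slc17a7 were high, with 469 ± 42.9 CPM in ChR2-flfl and 507 ± 28.8 CPM in Avil-ChR2 (SD, n = 8).

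The peptides are defined by a shared end, which binds to the receptors, whereas their beginnings differ and set the receptor preference. The bases that code for the 3 peptides were read from the GENCODE M21 transcripts, and they are shown because the common end is what joins the products of Tac1 and Tac2 into a family. Capitals mark the last 5 codons, which encode the common end.
substance P: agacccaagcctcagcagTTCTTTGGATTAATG
neurokinin A: cataaaacagattccTTTGTTGGACTAATG
neurokinin B: gacatgcacgacttcTTTGTGGGACTTATG
On GRCm38, plus strand, the substance P codons lie at chr6:7556732-7556764 in exon 3 of Tac1, the neurokinin A codons at chr6:7559101-7559130 in exon 6 of the same transcript, and the neurokinin B codons at chr10:127729116-127729145 in exon 6 of Tac2. Among the 15 capital bases, neurokinin A and neurokinin B had 13 in common, substance P and neurokinin A had 12, and substance P and neurokinin B had 10. These are counts of bases, not of residues. Substance P was encoded in 4 of 4 coding Tac1 transcripts and neurokinin A in 2 of 4. The deposited values are sums per gene, so that they do not tell how much Tac1 RNA carried the neurokinin A exon. Both coding transcripts of Tac2 carried neurokinin B.

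Tac1, at chr6:7554776-7562978 on the plus strand, was detected in all pups. In ChR2-flfl pups Tac1 had a lowest value of 3.14, a median of 4.13 and a highest value of 4.91 TMM CPM, referred to as normalized reads, and in Avil-ChR2 pups it had 3.87, 5.14 and 6.23. The genotypes overlapped, with 4 of 8 Avil-ChR2 pups above the highest ChR2-flfl pup and 1 ChR2-flfl pup below the lowest Avil-ChR2 pup. Mean levels were 4.17 ± 0.532 and 5.08 ± 0.912 CPM (SD, n = 8), which is a ratio of 1.22 and a difference of mean log2 values of 0.28. Behind these values stood 151-298 reads per pup. Counting error alone would give a coefficient of variation of 7.24% in ChR2-flfl and 6.37% in Avil-ChR2, and the observed values were 12.8% and 17.96%.

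Tac2, at chr10:127724478-127731768 on the plus strand, was the member with the larger genotype difference. Its lowest, median and highest values were 2.29, 3.01 and 3.69 CPM in ChR2-flfl and 3.29, 4.27 and 5.13 CPM in Avil-ChR2. Overlap was smaller than for Tac1, since 5 of 8 Avil-ChR2 pups were above every ChR2-flfl pup, 5 of 8 ChR2-flfl pups were below every Avil-ChR2 pup, and 8 of 8 Avil-ChR2 pups exceeded the ChR2-flfl mean. The means were 3.06 ± 0.502 and 4.18 ± 0.672 CPM (SD, n = 8), which is a ratio of 1.37 and a log2 difference of 0.45. Among all 21183 genes tested, 1030 had a larger log2 difference in either direction. In bulk cortex, more cells that express a gene and more RNA per cell cannot be told apart.

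**Figure D1:**
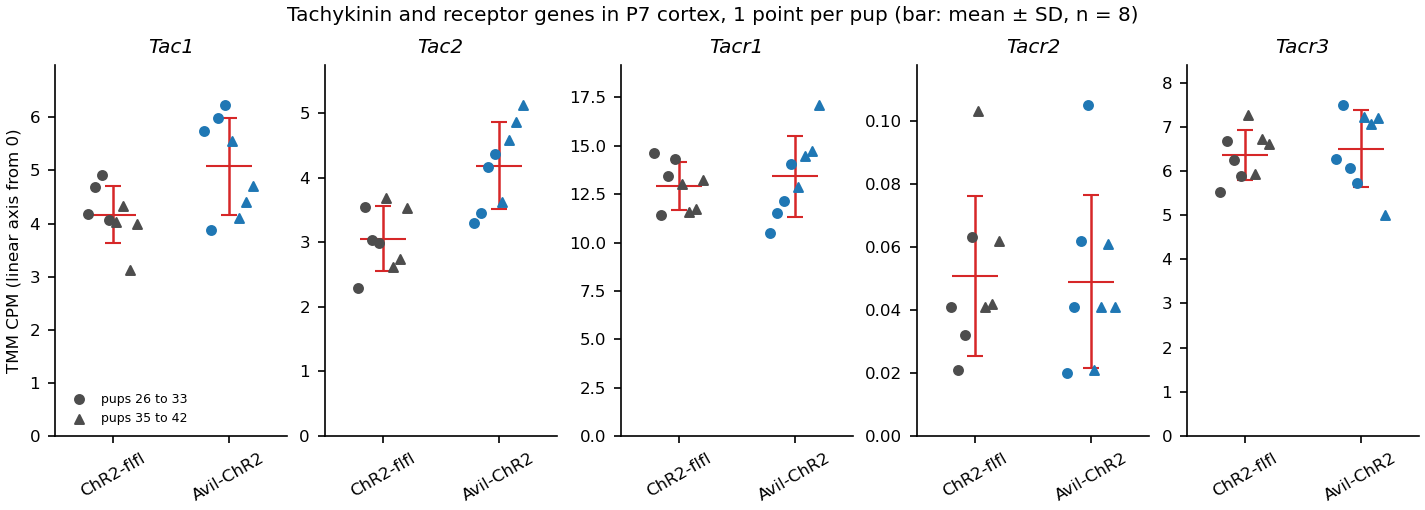
Normalized reads (TMM CPM, linear axes from 0) of the 5 genes in each pup, with ChR2-flfl in grey, Avil-ChR2 in blue, circles for pups 26 to 33, triangles for pups 35 to 42, and red bars for the mean ± SD (n = 8). Tac1 and Tac2 were on average higher in Avil-ChR2 with overlapping points, the Avil-ChR2 points of Tacr1 and Tacr3 span all ChR2-flfl points, and Tacr2 stayed at or below 0.105 CPM.

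Tac2 shares its chromosome with the gene whose promoter drives the Cre. It starts 703484 bases after the end of Avil, and 37 genes between them were tested. Of these, 6 had an unadjusted p below 0.05 for the genotype (16.2%, as compared with 5.41% of all genes). They were lower in Avil-ChR2 for 4 genes and higher for 2, as compared with 732 lower and 413 higher among all genes. The adjusted threshold was passed by 1, which was Mars with a log2 difference of -0.15, and 3 had a larger difference in either direction than Tac2. The median absolute log2 difference was 0.045 for the 37 genes and 0.051 for all genes. Within 1 Mb of Avil, 54 genes besides Avil and Tac2 were tested, and these include the 37. Their median absolute log2 difference was 0.081. An unadjusted p below 0.05 was found for 9 of the 54 (16.7%), with 7 lower and 2 higher in Avil-ChR2. A larger difference in either direction than Tac2 was found for 8 of the 54, as compared with 1030 of 21183 among all genes. Whether the position of Tac2 contributed to its difference was not tested. Tac1 is on another chromosome.

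The receptor for substance P, Tacr1, at chr6:82402005-82560104, was detected in all pups. ChR2-flfl pups had 11.4 CPM as the lowest, 13.1 as the median and 14.6 as the highest value, and Avil-ChR2 pups had 10.5, 13.5 and 17.1. All ChR2-flfl pups lay within the range of the Avil-ChR2 pups. The log2 difference was 0.05 with a standard error of 0.08 and a 95% interval from -0.13 to 0.22 (limma, adjusted p = 0.985), so that a difference of either sign within this interval was not distinguishable from the spread between pups.

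Tacr3, the receptor for neurokinin B at chr3:134829007-134934581, was the other receptor that was clearly detected. Its lowest, median and highest values were 5.52, 6.43 and 7.26 CPM in ChR2-flfl and 5.002, 6.66 and 7.49 CPM in Avil-ChR2. Again all ChR2-flfl pups were within the Avil-ChR2 range. The log2 difference was 0.03 with a standard error of 0.08 and a 95% interval from -0.14 to 0.19 (limma, adjusted p = 0.992).

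Tacr2, the receptor for neurokinin A at chr10:62252438-62265990, was at the limit of detection. It had 1 read in 4 pups, 2 reads in 6, 3 reads in 4 and 5 reads in 2 pups. The sum was 38 reads over all pups, or 0.0501 CPM of the summed libraries with an exact Poisson 95% interval from 0.0355 to 0.0688, which covers counting error only. Each genotype contributed 19 reads, so that no genotype difference was detectable at this depth. Mrgprd, a receptor of non-peptidergic sensory neurons, was likewise close to 0 with 0.0466 ± 0.0265 CPM in ChR2-flfl and 0.0411 ± 0.0288 CPM in Avil-ChR2 (SD, n = 8). At P7 reads of all 3 receptors were thus present in every pup, with 416-831 for Tacr1, 193-364 for Tacr3 and 1-5 for Tacr2.

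Further genes linked to tachykinins were also near 0. Tac4, which encodes hemokinin, had reads in 9 of 16 pups with means of 0.0196 CPM in ChR2-flfl and 0.0129 CPM in Avil-ChR2. Mrgprb2, a mast cell receptor that binds substance P, had means of 0.0936 and 0.0671 CPM, and its log2 difference of -0.57 did not pass the test (limma, adjusted p = 0.945).

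Levels of the family members were ranked after division by transcript length. With the longest coding transcript, Tac2 had 4.25 ± 0.959 CPM per kb, Tac1 3.76 ± 0.700, Tacr1 2.62 ± 0.336, Tacr3 1.71 ± 0.190 and Tacr2 0.0221 ± 0.0113 (SD, n = 16). Tac2 exceeded Tac1 in 11 of 16 pups, and these neighbors did not differ beyond their spread (log2 ratio 0.17 ± 0.34 SD, exact two-sided sign-flip permutation test, adjusted p = 0.0717 over 4 neighboring pairs). With the other lengths Tac2 was above Tac1 beyond the spread. The log2 ratios were 0.85 by the longest transcript of any type (adjusted p = 4.07e-05) and 0.94 by the union of exons (adjusted p = 6.10e-05, exact permutation test). The other 3 steps of the order held in 16 of 16 pups (exact permutation p = 3.05e-05 each, the smallest that sign flips of 16 pups can give, adjusted p = 4.07e-05).

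The place of Tac1 in that order depended on the assumed length. Its annotated exons cover 3399 bases in total, its longest coding transcript has 1230 and its longest transcript of any type has 1975. With the longest transcript of any type Tac1 had 2.34 CPM per kb. Its mean was then below that of Tacr1, which did not pass (exact permutation test, adjusted p = 0.0508, 11 of 16 pups). With the union of exons it had 1.36 CPM per kb and was below Tacr3 (exact permutation test, adjusted p = 0.00180, 12 of 16 pups). Tac2 was first and Tacr2 last under all 3 lengths, and the mean of Tacr1 was above that of Tacr3 under all 3, by the union of exons in 13 of 16 pups. By the union of exons, Tacr3 exceeded Tac1 in 8 of 8 ChR2-flfl pups and in 4 of 8 Avil-ChR2 pups.

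**Figure D2:**
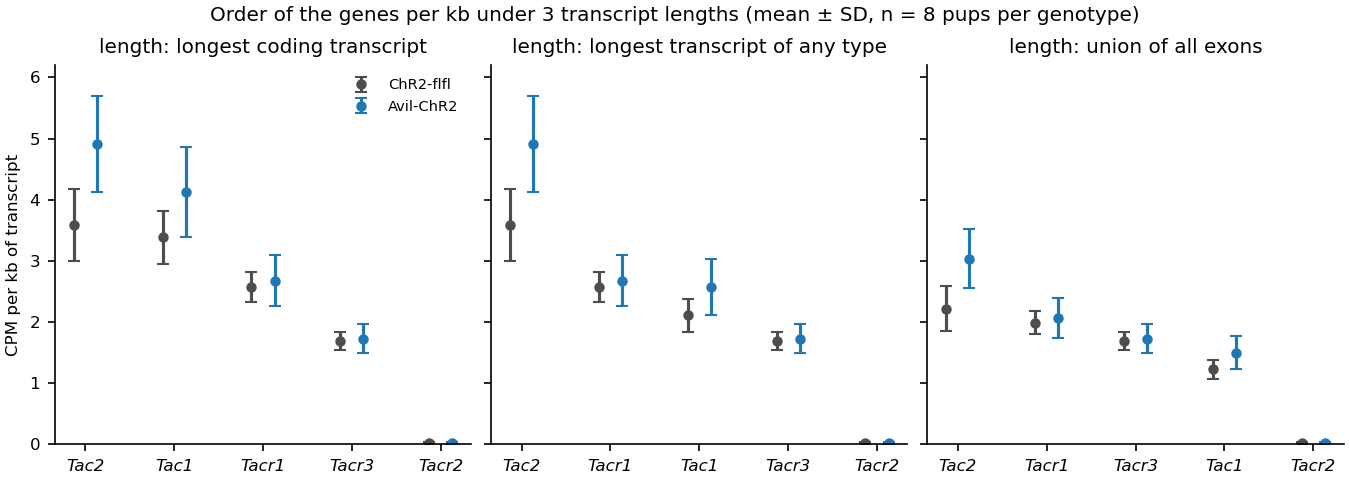
CPM per kb of transcript for the 5 genes in descending order (mean ± SD, n = 8 pups per genotype, ChR2-flfl in grey and Avil-ChR2 in blue), with each panel using another transcript length. Tac1 moves from the second place by its longest coding transcript to the fourth by the union of its exons, whereas Tac2 stays first and Tacr2 last.

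Pup numbers in the labels form 2 runs, 26 to 33 and 35 to 42, with 4 pups per genotype in each. The labels do not say what the runs are and do not give the litter of a pup. The genotype difference of Tac1 was 0.27 on the log2 scale in the earlier run and 0.28 in the later. For Tac2 it was 0.37 and 0.53. Both ligand genes were hence higher in Avil-ChR2 pups on average within each run.

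Tacr1 went in opposite directions. In pups 26 to 33 the ChR2-flfl values were 11.4-14.6 CPM and the Avil-ChR2 values 10.5-14.0 CPM, with a log2 difference of -0.16 (limma, adjusted p = 1.00 within the run). In pups 35 to 42 they were 11.6-13.2 CPM and 12.9-17.1 CPM, with a log2 difference of 0.25 (limma, adjusted p = 0.884 within the run). The groups overlapped in both runs. The difference between the runs was 0.41 with a standard error of 0.14 and an unadjusted p of 0.00837, but it failed the adjustment over all genes (limma interaction, adjusted p = 1.00). At an unadjusted p below 0.05 this interaction called 643 of 21183 genes (3.04%), and at an adjusted p it called 0. The interaction was 0.01 for Tac1, 0.16 for Tac2 and -0.08 for Tacr3 (limma, adjusted p = 1.00 for each).

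**Figure D3:**
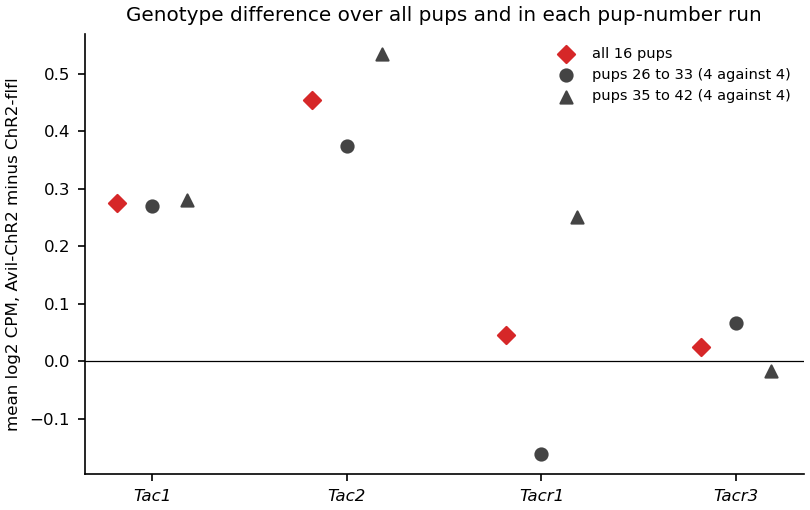
Difference of mean log2 CPM, Avil-ChR2 minus ChR2-flfl, for all 16 pups (red diamonds), pups 26 to 33 (circles) and pups 35 to 42 (triangles). Tac1 and Tac2 lie above 0 in both runs, Tacr1 lies at -0.16 in the earlier and 0.25 in the later run, and Tacr3 is close to 0.

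Levels also varied with the run itself. Tac1 was lower in the later run with a log2 difference of -0.21 and a standard error of 0.10, which did not pass the adjusted threshold (limma, adjusted p = 0.398). The difference was 0.17 for Tac2 (adjusted p = 0.555), 0.09 for Tacr1 (adjusted p = 0.705) and 0.08 for Tacr3 (adjusted p = 0.723) in the same limma fit. The run called 26 of all genes at an adjusted p below 0.05 (0.123%), of which 0 were tachykinin or receptor genes, and 12.5% of all genes had an unadjusted p below 0.05, Tac1 among them with 0.0495.

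None of the 4 genes passed the test for sex. By the labels, female minus male log2 differences were 0.19 for Tac1 with a standard error of 0.10, -0.01 for Tac2, -0.01 for Tacr1 and -0.10 for Tacr3 (limma, adjusted p between 0.988 and 0.997). Sex by the labels, which count Avil-ChR2 replicate 4 as female despite its Y-linked reads, called 9 of the 21183 genes (0.0425%), and 4.46% had an unadjusted p below 0.05. With the sexes of the supplementary file the differences were 0.11 for Tac1, -0.03 for Tac2, -0.03 for Tacr1 and -0.06 for Tacr3 (limma, adjusted p = 1.00 for each). In ChR2-flfl pups, where the sources do not differ, the 4 males had 3.14-4.19 CPM of Tac1 and the 4 females 4.07-4.91 CPM, and in Avil-ChR2 pups the values of males and females overlapped widely. Among the ChR2-flfl pups, replicates 5, 7 and 8 were males of the later run, and replicates 2, 3 and 4 were females of the earlier run. Tac1 averaged 4.46 CPM in the earlier and 3.87 CPM in the later run of this genotype. Sex and run can therefore hardly be told apart in these pups. By the labels, interactions of genotype and sex were -0.09 for Tac1, -0.04 for Tac2, 0.09 for Tacr1 and -0.06 for Tacr3 (limma, adjusted p = 0.997 or above). By the supplementary file they were -0.26 for Tac1, -0.08 for Tac2, 0.05 for Tacr1 and 0.04 for Tacr3 (limma, adjusted p between 0.904 and 0.991). By the labels no gene at all was called for this interaction at an adjusted p below 0.05, and 912 (4.31%) were at an unadjusted p below 0.05.

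The remaining genes of tachykinin signaling were described by function. Of 31 genes in the lists 30 were tested, and 0 passed the adjusted threshold for the genotype, as compared with 2 of all 21183 genes (0.00944%), which were Avil and Mars. At an unadjusted p below 0.05 there was 1 of 30 (3.33%), as compared with 5.41% of all genes. The median log2 difference was 0.01 in the lists and 0.00 among all genes, and the median of absolute differences was 0.034 and 0.051.

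Peptide processing comprises the convertases that cut the precursors and the enzymes that trim and amidate the peptides. None of the 6 genes passed the test. All 6 had positive log2 differences with a median of 0.03, as compared with 15 of 30 genes over all lists and 10885 of the 21183 genes tested. Cpe, the carboxypeptidase that trims the cut ends, had 955 ± 50.3 CPM in ChR2-flfl and 1002 ± 35.7 CPM in Avil-ChR2 (SD, n = 8). Its log2 difference of 0.07 had an unadjusted p of 0.0493 and did not pass after adjustment (limma, adjusted p = 0.911). Pcsk2, a convertase of secretory granules, had 266 ± 10.95 and 271 ± 6.90 CPM with a log2 difference of 0.03 (limma, adjusted p = 0.964).

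The 7 peptidases that can degrade tachykinins had log2 differences from -0.10 to 0.06 with a median of -0.02, and none passed the test. Mme, which encodes neprilysin, the main membrane enzyme that inactivates substance P, was at the lower end with -0.10 and 15.4 ± 1.34 versus 14.4 ± 1.63 CPM (limma, adjusted p = 0.945). Ece2 and Prep, which had the highest CPM of the list without regard to length, had log2 differences of 0.06 and 0.04 (limma, adjusted p = 0.948 and 0.945). Receptor coupling and desensitization was represented by 16 genes, with log2 differences from -0.06 to 0.04, a median of -0.01 and 0 genes that passed. Gnas, which encodes the Gs subunit, and Gnaq, which encodes the Gq subunit, were those with the highest CPM without regard to length, with 1317 ± 48.0 versus 1355 ± 36.9 CPM and 602 ± 14.1 versus 595 ± 10.7 CPM.

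**Figure D4:**
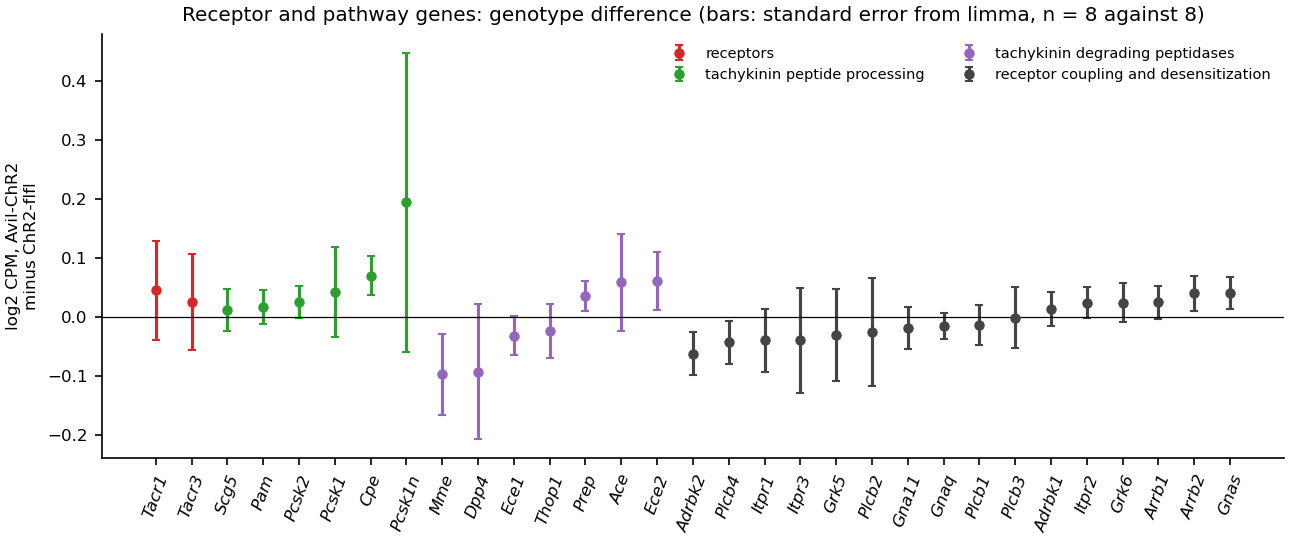
Log2 difference (Avil-ChR2 minus ChR2-flfl, n = 8 against 8) with the standard error from limma for Tacr1, Tacr3 and 29 genes of peptide processing, peptide degradation, and receptor coupling and desensitization. Differences lie between -0.10 and 0.07 except for Pcsk1n, which is at 0.19 with the widest error.

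Tac1 and Tac2 are also expressed in other brain regions, therefore markers of other cells and regions were compared. Striatal projection neuron markers summed to 128-157 CPM in ChR2-flfl and 118-167 CPM in Avil-ChR2. None of the 9 tested genes of 11 passed the test, with a median log2 difference of 0.04. Six3 and Isl1 were below 1 CPM. Cortical interneuron markers summed to 1218-1343 and 1216-1317 CPM, with 0 of 19 tested genes past the adjusted threshold and a median of 0.04. In this list Dlx6 was listed at 0 in every pup and Pvalb was below 1 CPM.

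Markers of other regions were also summed. Of the medial habenula, in which both peptide genes are known to be expressed, Gpr151, Pou4f1, Chrnb3 and Chrnb4 were below 1 CPM, and Nwd2 made up most of the summed 201-244 and 194-229 CPM. Hypothalamic markers, which were included since Tac2 is known from kisspeptin neurons, summed to 9.79-11.5 and 9.43-12.04 CPM, and 7 of 9 including Kiss1 were below 1 CPM. Sensory neuron markers summed to 5.84-8.15 and 6.30-7.82 CPM, with 6 of 8 below 1 CPM. Thalamus markers summed to 72.2-89.1 and 67.1-79.6 CPM, and hippocampus markers to 82.6-88.9 and 77.6-94.0 CPM. No gene of these 5 lists passed the adjusted threshold.

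Tac1 had positive coefficients with the striatal markers in both genotypes, of which the rank correlation in ChR2-flfl passed the adjusted threshold. In ChR2-flfl pups Pearson's r was 0.88 (exact permutation p = 0.00630, adjusted 0.0942 over 16 correlations) and Spearman's rho was 0.93 (exact permutation p = 0.00223, adjusted 0.0357), and r was 0.78 without the 2 pups farthest from the median of Tac1. In Avil-ChR2 pups r was 0.62 (exact permutation p = 0.110, adjusted 0.439), rho was 0.55 (p = 0.171, adjusted 0.391, exact permutation test), and r without the farthest 2 pups was 0.74. Each run holds 4 pups per genotype, which is too few for a correlation of its own. The striatal markers themselves differed between the runs, since every pup of the earlier run had a higher mean log2 value than any pup of the later run of its genotype (3.21-3.502 and 3.03-3.18 in ChR2-flfl, 3.23-3.5001 and 2.99-3.18 in Avil-ChR2). In a test added after seeing the data, in which pups were permuted only within their run, the exact permutation p was 0.00174 for r and 0.00347 for rho in ChR2-flfl, of which 0.00174 is the smallest that the 576 permutations can give, and 0.236 and 0.458 in Avil-ChR2. After subtraction of run means r was 0.83 in ChR2-flfl and 0.57 in Avil-ChR2. The part of the striatal markers in the genotype difference of Tac1 was not tested.

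**Figure D5:**
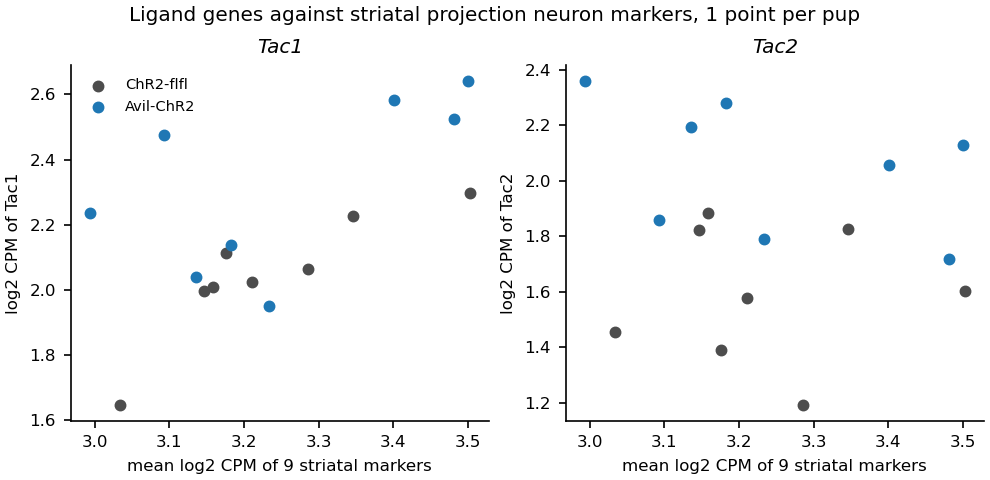
Log2 CPM of Tac1 (left) and Tac2 (right) against the mean log2 CPM of 9 striatal projection neuron markers, with 1 point per pup (ChR2-flfl grey, Avil-ChR2 blue). For Tac1 the coefficient was 0.88 in ChR2-flfl and 0.62 in Avil-ChR2 pups, and for Tac2 it was 0.02 and -0.43. These coefficients do not take the run of a pup into account.

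For Tac2 the corresponding coefficients were 0.02 in ChR2-flfl (exact permutation p = 0.958, adjusted 0.958, rho = 0.00) and -0.43 in Avil-ChR2 (exact permutation p = 0.283, adjusted 0.485, rho = -0.50). With interneuron markers, Tac1 had r = 0.56 in ChR2-flfl (exact permutation p = 0.180) and r = 0.75 in Avil-ChR2 (exact permutation p = 0.0148), with rho of 0.67 and 0.81, and neither passed after adjustment (adjusted p = 0.485 and 0.0942). Tac2 had 0.46 and 0.06 with the same markers, with rho of 0.55 and 0.19 (exact permutation p = 0.256 and 0.883, adjusted 0.485 and 0.941). Without the 2 farthest pups, r with interneuron markers was 0.71 and 0.56 for Tac1 and 0.73 and -0.14 for Tac2. Genotype and run means were also subtracted, and r was taken over the 16 pups of both genotypes together. With striatal markers r was then 0.66 for Tac1 and 0.21 for Tac2, and with interneuron markers it was 0.56 and 0.54. Of all 16 rank correlations 1 passed, and the other 15 had exact permutation p from 0.0218 to 1 and adjusted p from 0.174 to 1. The Pearson coefficients of the same 16 pairings were adjusted as a set of their own. None of them passed, with a lowest adjusted p of 0.0942 (exact permutation test). The pass therefore rests on the rank correlations and on their separate adjustment.

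No correlation of a ligand with its receptor passed the adjusted threshold. Tac2 and Tacr3 had r = 0.81 in ChR2-flfl (exact permutation p = 0.0177, adjusted 0.0942, rho = 0.71) and r = -0.44 in Avil-ChR2 (exact permutation p = 0.276, adjusted 0.485, rho = -0.45). Without the 2 farthest pups r was 0.51 and -0.45. Over the 16 pups of both genotypes together r was 0.05 after subtraction of genotype means, and -0.02 when run means were subtracted as well. These pooled values join coefficients of opposite sign and do not tell what the runs contributed within a genotype. Tac1 and Tacr1 had r = 0.13 and -0.25 (exact permutation p = 0.790 and 0.553, adjusted 0.903 and 0.804, rho = -0.05 and -0.19), and -0.70 and -0.62 without the 2 farthest pups. Tac1 and Tac2 had r = 0.17 and -0.19 (exact permutation p = 0.702 and 0.648, adjusted 0.863 each, rho = -0.02 and -0.14). The receptor genes Tacr1 and Tacr3 had negative coefficients in both genotypes, r = -0.48 in ChR2-flfl and r = -0.42 in Avil-ChR2 (exact permutation p = 0.227 and 0.303, adjusted 0.485 each, rho = -0.62 and -0.36). Over the 16 pups of both genotypes together r was -0.58 after subtraction of genotype and run means.

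The genes most like each member were found by Pearson's r over 16 pups after subtraction of the genotype mean, among 15136 other genes whose mean log2 value was not below 0. These coefficients are descriptive, since the best of many genes were taken and all genes share libraries and dissection. Tac1 was most like Pja1 (r = 0.90), an E3 ubiquitin ligase, then Efhd2 (0.89), Zdhhc12 (0.85), Ankrd63 (0.85) and Bod1 (0.84). Tac2 was most like Itpka (r = 0.92), an inositol trisphosphate kinase of dendritic spines, then Sirpa (0.90), Adck3 (0.90), Nnmt (0.90) and 1810010H24Rik (0.89). For Tacr1 the list was 6330403A02Rik (r = 0.89), the homeobox gene Meis2 (0.86), AU022754 (0.85), the semaphorin receptor Plxnc1 (0.84) and 1700001L19Rik (0.83). For Tacr3 it was Cadps2 (r = 0.82), a factor for the release of dense-core vesicles, Nt5c1a, Sytl2, Hlf and Cabyr (0.82 each).

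No gene was among the first 5 of more than 1 member. Coefficients above 0.8 were found for 10 genes with Tac1, 29 with Tac2, 11 with Tacr1 and 12 with Tacr3. When the run means were subtracted as well, Itpka stayed at 0.91 with Tac2 and Pja1 at 0.87 with Tac1, and the lowest of the 20 coefficients was 0.71, for 1700001L19Rik with Tacr1. The genotype differences of the 20 genes, given without a test, were between -0.04 and 0.16 on the log2 scale, with the highest for 1810010H24Rik. Itpka had 30.1 CPM in ChR2-flfl and 32.2 CPM in Avil-ChR2, a log2 difference of 0.10, and Pja1 had 176 and 178 CPM, a log2 difference of 0.02.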

How the data were processed

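RNAseq of P7 cortex was analyzed for 16 pups. According to the paper's methods, the authors aligned reads of stranded mRNA libraries of at least 50 bp with SeqMan NGen 17 to GRCm38 (mm10), took the reads of each gene and normalized them by TMM in edgeR to CPM. The deposited values are linear CPM per pup, without pooling, and empty without reads. Reads were worked out from the value of 1 read. Molecular identifiers were not used. The Poisson interval of Tacr2 covers counting error only, and the limma intervals of Tacr1 and Tacr3 measure the spread between pups.

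Values were log2 transformed without pseudocount, missing values and values below -5 were set to -5, and genes needed at least 12 of 16 pups above -5. Limma 3.58.1 in R 4.3.3 (intensity trend, Benjamini-Hochberg adjustment over 21183 genes) compared genotypes, sexes (genotype as covariate), runs and interactions. Neighbors in the per-kb order and correlations were tested with two-sided exact permutation tests. Scripts were tested on simulated data. Lengths, exons and sequences are from GENCODE M21.

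Named genes are the 5 members, list genes at an unadjusted p below 0.05, the 2 with the highest CPM of each pathway list, markers, Avil, and the 5 genes most like each of 4 members. Mars, Mme and Pcsk1n were named after their values were seen. Members, lists and tests were chosen with earlier results of these data known. Whether pups of a genotype came from separate litters is not given, so that p-values measure the spread between pups. Alternatives were other filters, scalings, covariates, a replicate block, other lengths and omission of single pups.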

Additional observations from a re-analysis of the deposited data

Results flagged for a closer look

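Among the 8 ChR2-flfl pups, replicate 7 had the lowest Tac1 with 3.14 CPM and stood apart from the others. The gap to the next pup was 0.538 of the whole range on the log2 scale. Chance alone flags about 1 in 20 such groups, and 10 groups were examined. The same pup had the lowest mean of the striatal projection neuron markers of its genotype, with a log2 value of 3.03.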

How the results depend on the processing

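The genotype difference of Tac1 (log2 0.23 to 0.28) and of Tac2 (0.35 to 0.53) kept its direction under all 11 alternatives run. Several of these could not change it. Both genes had reads in every pup, so that filters and drawn missing values left their values as they were. Runs and replicate numbers hold equally many pups of each genotype, so that these covariates could not move the difference. With single pups left out it was 0.22 to 0.33 for Tac1 and 0.40 to 0.50 for Tac2. The genotype called 0 receptor and pathway genes under every alternative run with limma, and with each pup left out. At an unadjusted p below 0.05 there were 0 to 2. Replicate numbers are serial numbers of different pups (same-number r from -0.34 to 0.39). A fit with the replicate block changed no call, and by its balance it left the difference at 0.28 for Tac1 and 0.45 for Tac2.

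The difference of Tacr1 turned to -0.16 within pups 26 to 33, that of Tacr3 to -0.017 within pups 35 to 42, and the interaction of genotype and sex of Tacr3 to 0.037 with the sexes of the supplementary file, none of them past the threshold. By the union of exons the log2 ratio per kb was -0.59 for Tac1 over Tacr1 and 0.94 for Tac2 over Tac1, and by the longest transcript of any type -0.18 and 0.85. The other length of Tac1 alone accounts for the latter, whereas by the union of exons the lengths of Tac2 and Tacr1 changed as well.

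Some small differences changed sign when 1 pup was left out, with none past the threshold. Ranges were -0.0070 to 0.094 for the genotype in Tacr1 and -0.0058 to 0.078 in Tacr3, -0.077 to 0.040 for sex in Tac2 and -0.083 to 0.019 in Tacr1, -0.15 to 0.081 for the interaction with the run in Tac1 and -0.14 to 0.045 in Tacr3, and for the interaction with sex -0.19 to 0.052 in Tac1, -0.21 to 0.095 in Tac2, -0.069 to 0.18 in Tacr1 and -0.12 to 0.023 in Tacr3. The run interaction of Tacr1 stayed between 0.34 and 0.49. The longest transcript of any type, the sexes of the supplementary file in the interaction with sex, permutation within runs and the omission of pups from sex, run and interaction fits were chosen after seeing the data. The planned count tests with edgeR and DESeq2 were not run. Depth limits Tacr2, Tac4 and Mrgprb2, which had few reads.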
